A study of Mus musculus with 6 samples.

Results

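The nuclear genes of the oxidative phosphorylation complexes were examined in Ba/F3 cells with and without the SPAG9-JAK2 fusion kinase. A gene was a member if its array symbol began with Nduf, Uqcr, Cox4 to Cox8 or Atp5, or was Sdha, Sdhb, Sdhc or Sdhd, and if a probe set carried that symbol alone. The rule found 90 of 18193 measured genes, and the probe set with the highest mean over the 6 arrays stood for each gene. They comprised 34 subunit genes of complex I, 4 of complex II, 8 of complex III, 18 of complex IV and 17 of complex V, 8 complex I assembly factors and Cox7a2l, which acts in the joining of complexes into supercomplexes. Ndufa4 was counted in complex IV, where its protein is found, and its paralog Ndufa4l2 beside it. Ndufs6 and Ndufa11 occur on these arrays only on probe sets shared with another symbol and were not analysed here.

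Ba/F3 is a mouse pro-B line whose growth needs the cytokine interleukin-3. All cells carried the fusion of the scaffold protein SPAG9 with the tyrosine kinase JAK2 in a retroviral Tet-On construct, so both groups share the vector and the transduction. Induced cells (3 arrays) received doxycycline at 500 ng/ml and uninduced cells (3 arrays), called mock Ba/F3 by the study, received none, and total RNA was taken after 48 hours and hybridised to 3′ expression arrays. The comparison asks which genes differ once the fusion is switched on. Doxycycline was given only together with the fusion, so the drug and the kinase cannot be told apart. The labels do not say whether interleukin-3 was present in either group. They also do not say whether the line was 1 clone or whether the triplicate cultures were separate experiments.

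The median signal of an array was between 46.3 and 63.8, and uninduced array 1 had the highest. Levels are given as log2(signal + 16), and changes as the difference of these between induced and uninduced arrays with the standard error (SE). Of 13 measured marker genes of the line, 6 were above the 90th percentile of 27 liver and brain genes that stood for background (6.12), among them Il3ra, Csf2rb, Ptprc, Igll1 and Cd79b, while Pax5, Ebf1, Cd79a, Vpreb1 and Rag1 were not. Igll1 was only just above it, with a mean of 6.16 and values from 4.91 to 7.16 over the 6 arrays. Of 10 myeloid markers 7 were above the background level, Itgam only just (a mean of 6.124 against 6.115). The summed signal of all 10 was 656 to 1376 on induced and 1357 to 3498 on uninduced arrays, and their median difference was -1.30. S100a8, Ltf and Elane had 6-array means below the background level. On uninduced arrays, though, S100a8 stood at 7.12, 7.14 and 6.92 and Ltf at 6.39, 7.40 and 6.86, above that level on all 3. On induced arrays these 2 genes stood at 4.37, 4.26 and 6.01 and at 4.18, 4.70 and 4.97. Elane (0.46 ± 0.56) and Mpo (0.05 ± 0.97) had positive differences, with overlapping groups. Of 4 erythroid markers Klf1 and Epor were above the background level. The summed signal of all 4 was 3907 to 4834 on induced and 2317 to 2381 on uninduced arrays. Most of this sum came from Klf1, at 3687, 4499 and 4097 on induced and 2025, 1922 and 2049 on uninduced arrays. Klf1 differed by 1.02 ± 0.16, whereas Epor stood at -0.21 ± 0.23 with overlapping groups. Also above the background level were 2 of 4 T cell and 1 of 5 fibroblast markers. The part of these markers in the values below was not tested. The array probe sets for Jak2 and Spag9 gave -0.54 ± 0.41 and -0.92 ± 0.33, and since it is not known here where their probes lie relative to the introduced sequence, they do not check the induction.

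Oxidative phosphorylation is carried out by multi-subunit complexes of the inner mitochondrial membrane. Complex I takes electrons from NADH and complex II from succinate, ubiquinone carries them to complex III and cytochrome c to complex IV, which reduces oxygen, and the proton gradient built on the way drives ATP synthesis by complex V. Most subunits are encoded in the nucleus and a smaller number in mitochondrial DNA, and assembly factors build complex I without staying in it. NRF1 and the ETS factor GABPA are transcription factors known for binding the promoters of many of these genes.

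Promoter sequences from RefSeq (GRCm38.p6, 250 bases before to 50 after each gene's start) matched 74 of the 90 members. The NRF1 letters GCGCATGC were found in 11 of them (14.9%), against 4.7% of the 14367 measured genes with a promoter sequence. The full palindrome of NRF1, in which these letters run on by GC so that both strands read alike, was found in 6 (8.11%, against 1.75%), all within the former. The letters AAGATGGCG of the factor YY1 were found in 7 (9.46%, against 2.54%), the ETS letters CCGGAAGT in 5 (6.76%, against 6.65%) and the E-box CACGTG in 6 (8.11%, against 10.25%), each searched on both strands. By complex, the palindrome was in 2 of 15 promoters of complex V, 2 of 7 of assembly factors, 1 of 5 of complex III, 1 of 12 of complex IV and 0 of 31 of complex I. These are matches of letters, with no measurement of binding. The stretches below, each of 60 bases and upstream of the start, show the NRF1 letters on one strand or the other (capitals) in 6 of the 11 members, 4 with a positive and 2 with a negative difference, picked as examples. The stretches end at different distances from the start: the last base shown is 1 base before it for Ndufa8, 13 bases for Atp5g2, 21 for Atp5k, 56 for Ndufa6, 84 for Ndufaf4 and 133 for Cox6a1.
Ndufa8: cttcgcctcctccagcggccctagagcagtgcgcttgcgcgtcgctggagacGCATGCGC
Ndufaf4: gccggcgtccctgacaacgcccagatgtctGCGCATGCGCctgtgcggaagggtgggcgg
Atp5k: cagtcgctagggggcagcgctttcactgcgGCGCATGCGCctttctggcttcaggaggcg
Cox6a1: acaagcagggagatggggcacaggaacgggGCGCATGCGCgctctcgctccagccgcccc
Atp5g2: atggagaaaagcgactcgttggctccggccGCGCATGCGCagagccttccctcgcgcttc
Ndufa6: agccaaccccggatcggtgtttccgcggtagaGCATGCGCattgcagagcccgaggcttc
They lie at chr2:36049339-36049398, minus strand (Ndufa8), chr4:24897940-24897999, plus strand (Ndufaf4), chr5:108434420-108434479, minus strand (Atp5k), chr5:115349091-115349150, minus strand (Cox6a1), chr15:102671060-102671119, minus strand (Atp5g2) and chr15:82354347-82354406, minus strand (Ndufa6). The changes of these genes were 0.60, 1.18, 0.46, 0.07, -0.30 and -0.71. Over all members with a promoter sequence, the letters GCGCATGC were in 9 of 51 with a positive difference (17.6%) and in 2 of 23 with a negative one (8.7%), shares whose difference was not tested.

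No nuclear oxidative phosphorylation gene passed the test over all genes. At a threshold of 0.05 on the adjusted p, limma called 34 of 18193 genes (0.187%), 21 higher (0.115%) and 13 lower (0.0715%), and 0 of the 90 members were among them, with a smallest adjusted p of 0.145. The 34 calls over all genes became 1453 without uninduced array 1 and between 0 and 12 without any other single array. At an unadjusted p under 0.05 there were 12 members higher, against 7.14% of all genes, and 6 lower, against 10.3%. Among the 1820 genes in the top 10% by level, 267 were higher and 180 lower at that p, shares near those of the members. Of the 90 members 60 (66.7%) had a positive and 30 a negative difference, whereas 44.1% of all genes and 55.4% of the top 10% by level were positive. The members' median was 0.15, against -0.06 over all genes and 0.05 over the top 10% by level. In RNA from a bulk culture, fewer cells that express a gene and less RNA per cell cannot be told apart.

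Most differences were small. For 75 of 90 members (83.3%) the 95% confidence interval lay within a 2-fold change in either direction, against 51.1% of all genes and 74.7% of the top 10% by level. The 3 induced arrays lay wholly above the 3 uninduced ones for 26 members, against 10.7% of all genes, and wholly below for 8, against 13.4%. Taken in either direction this is 37.8% of the members, 24.1% of all genes and 40.1% of the top 10% by level, so the members' share was near that of other highly expressed genes. The plot of all 90 changes shows how they scatter around 0.

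**Figure D1:**
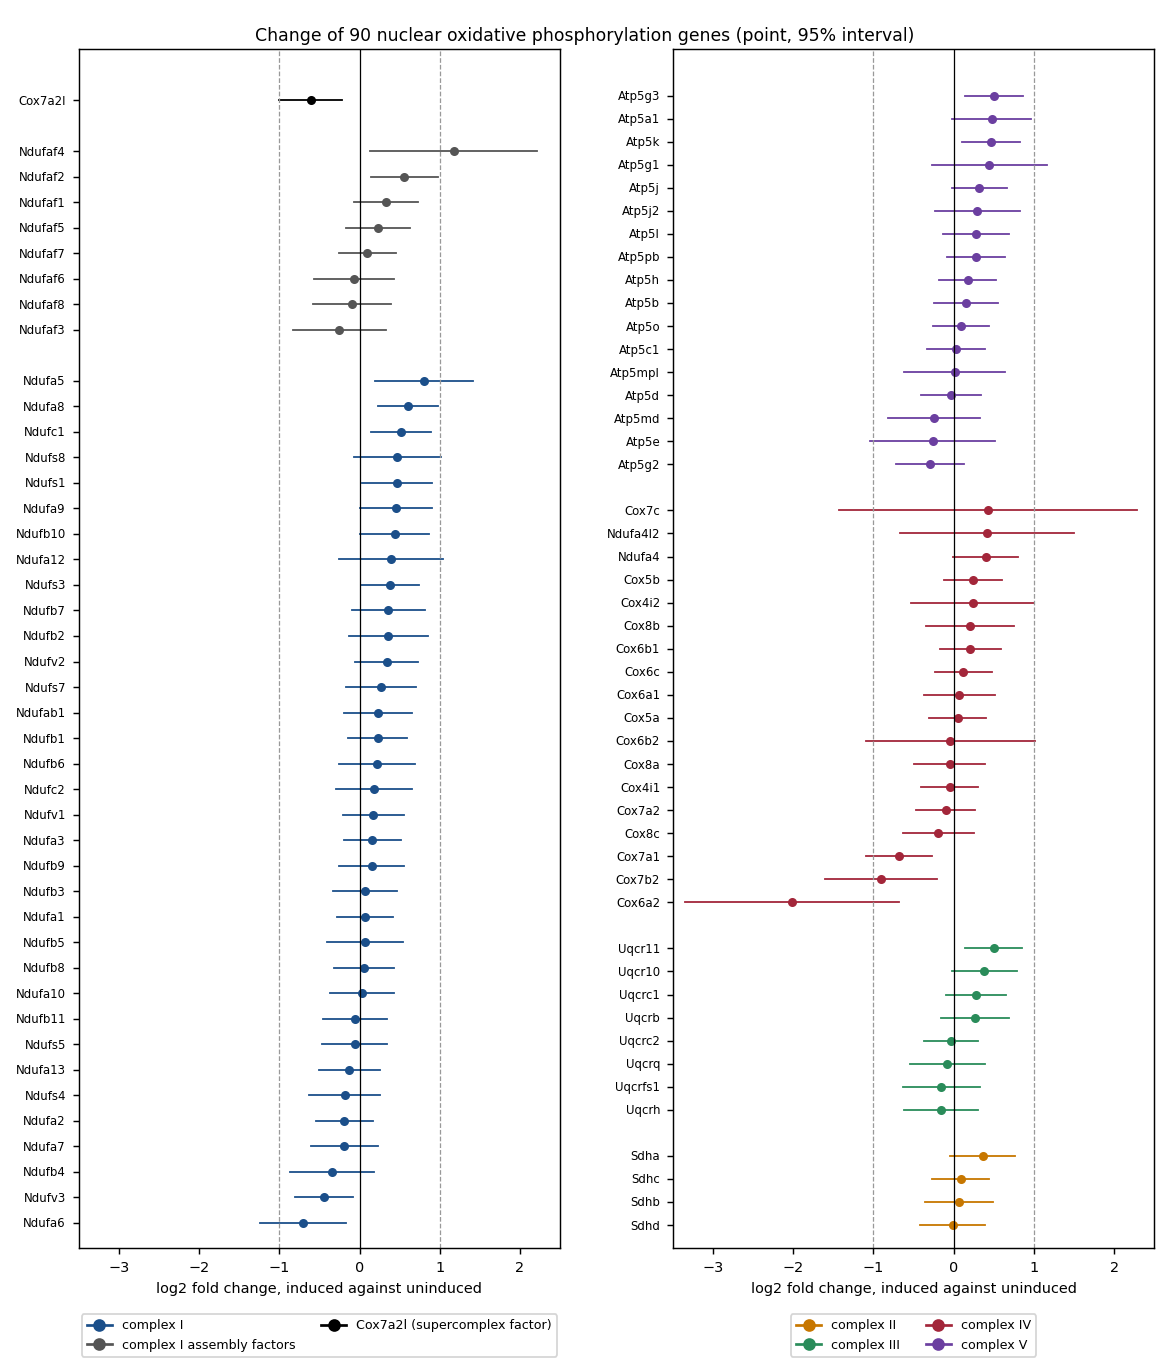
Log2 fold change of each of the 90 genes, induced against uninduced (x axis, point), with its 95% confidence interval from limma (line), ordered by size within each complex, and dashed lines at a 2-fold change. Of the points 60 lie right of 0 and 30 left, and the intervals of 75 stay between the dashed lines.

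By complex, the medians were 0.18 for complex I (25 of 34 subunits positive), 0.08 for complex II (3 of 4), 0.12 for complex III (4 of 8), 0.06 for complex IV (10 of 18) and 0.18 for complex V (13 of 17). Assembly factors had a median of 0.16 (5 of 8). No complex had a member past the threshold, and the differences between complexes were not tested. The mean level of the complex V genes was 13.55, 13.58 and 13.54 on induced arrays 1 to 3 and 13.41, 13.38 and 13.40 on uninduced arrays 1 to 3. In complexes I, III and V the induced means lay above all uninduced ones. In complex V the gap was 0.16, and the SDs of 0.02 and 0.02 (n = 3) were those of a mean over 17 genes. Single genes varied more and in opposite directions. On uninduced arrays 1 to 3 Atp5e stood at 12.70, 13.67 and 13.64 and Atp5g1 at 12.94, 11.89 and 12.06. For complex IV the mean levels overlapped, with uninduced array 1 the highest of the 6 (10.36).

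**Figure D2:**
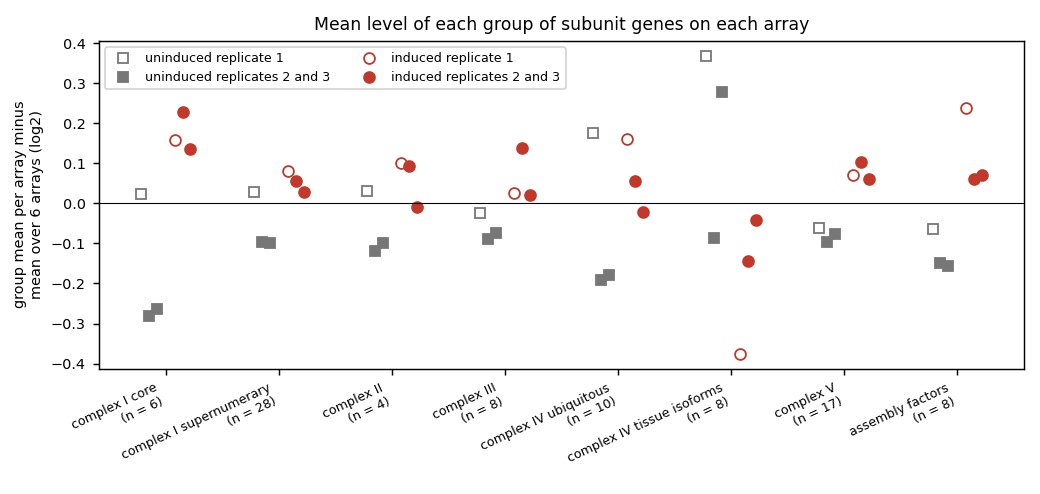
Mean log2(signal + 16) of each gene group on each array, after subtracting the group's mean over the 6 arrays (y axis, log2 units), with uninduced arrays as squares, induced arrays as circles and replicate 1 open. Among the complex I core genes uninduced array 1 (a mean level of 12.37) stands between the induced arrays (12.48 to 12.57) and uninduced arrays 2 and 3 (12.06 and 12.08).

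Uninduced array 1 lay apart from uninduced arrays 2 and 3 for many members. Over the 90 members the median difference was 0.08 between the arrays numbered 1 and 0.17 between those numbered 2 and 3. For complex I it was 0.08 and 0.22, for complex III 0.10 and 0.22, for complex V 0.11 and 0.24, and for complex IV -0.03 and 0.09. Uninduced array 1 lay nearer to the induced mean than to uninduced arrays 2 and 3 for 54 of 90 members (60%). The share was 55.6% of all genes and 60.7% of the top 10% by level. For 14 members both arrays numbered 1 lay above the other 4 arrays and for 10 below them. Together this is 26.7% of members, 21.5% of all genes and 27.5% of the top 10% by level. Both shares of the members were thus near those of other highly expressed genes. Without uninduced array 1, limma called 7.99% of all genes and 3 members: Ndufa5 and Ndufaf4 rose, against 3.22% of all genes called higher, and Ndufa6 fell, against 4.77% called lower. Without both arrays numbered 1, limma called 8.12% of all genes and 4 members: Ndufa5 and Ndufaf4 rose (2.88% of all genes called higher), and Ndufa6 and Cox7a2l fell (5.24% called lower).

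**Figure D3:**
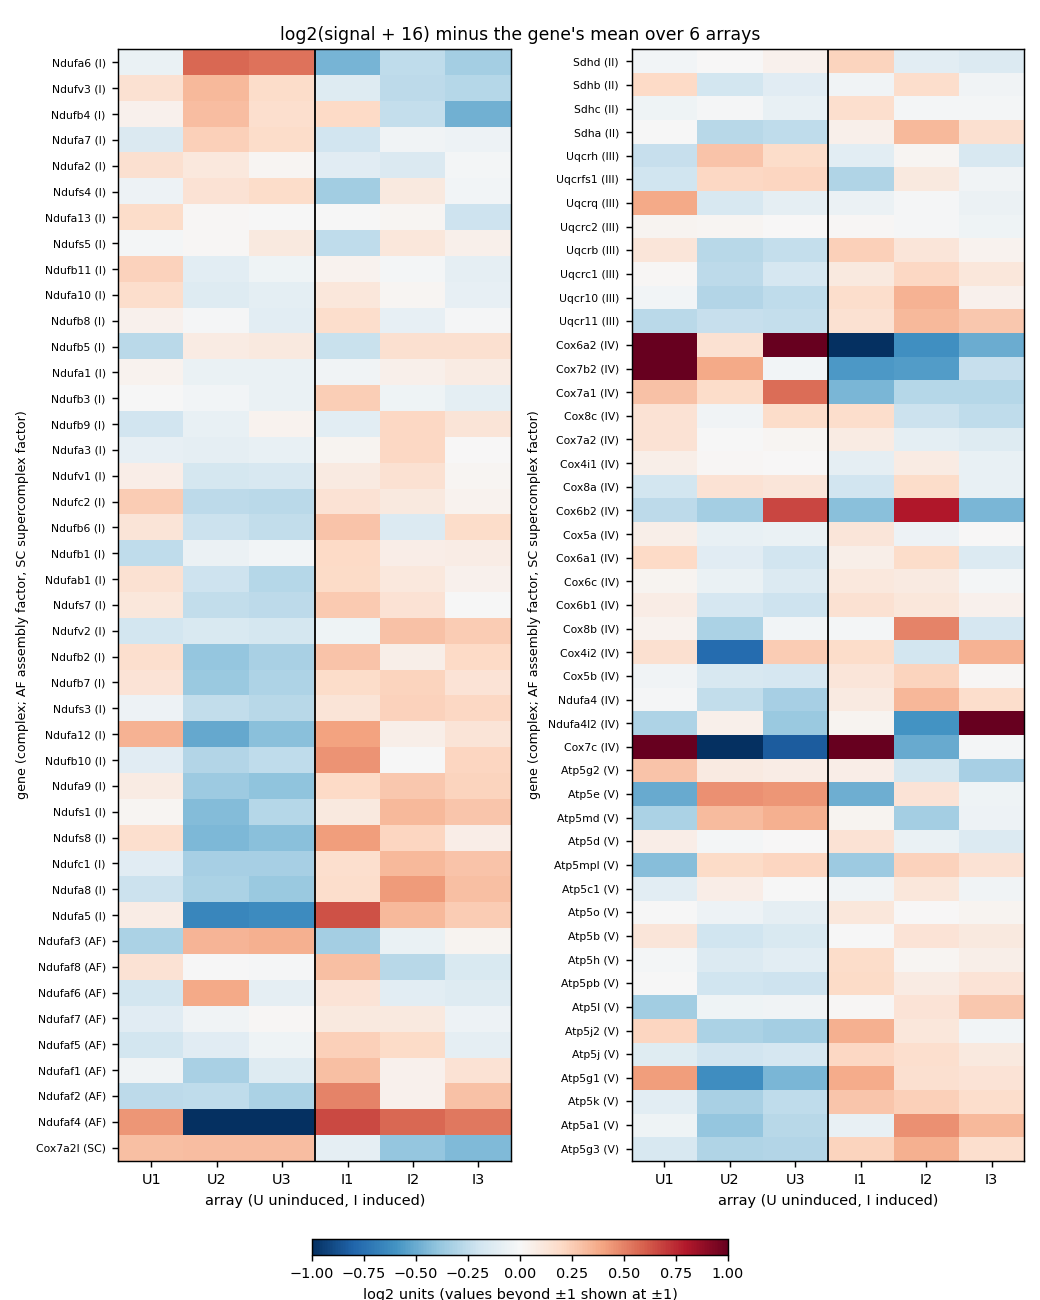
Level of each gene on each array as log2(signal + 16) minus the gene's mean over the 6 arrays (colour, cut at 1 log2 unit), with genes in rows by complex and arrays in columns (U uninduced, I induced, numbered by replicate). Column U1 is redder than U2 and U3 for many complex I genes that are red on induced arrays, whereas Cox7a2l is red on all 3 uninduced arrays.

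Complex I begins with its core subunits, which bind NADH and pass electrons through iron-sulfur clusters. All 6 measured nuclear core genes had a positive difference, with a median of 0.36, and none passed the test over all genes. Ndufs1, the largest iron-sulfur subunit, stood at 11.80, 12.02 and 11.98 on induced arrays 1 to 3 and at 11.72, 11.27 and 11.41 on uninduced arrays 1 to 3. Its induced arrays all lay above its uninduced ones, by 0.47 ± 0.18 (SE), and the adjusted p from limma was 0.264. Ndufs3, a subunit of the arm that reaches into the matrix, stood at 12.16, 12.26 and 12.24 and 11.98, 11.79 and 11.75 in the same order, a difference of 0.38 ± 0.15 without overlap. Ndufv2, which holds an iron-sulfur cluster next to the flavin site, differed by 0.34 ± 0.16, also without overlap. The other 3 overlapped between groups: Ndufv1, which carries the flavin and binds NADH (0.17 ± 0.16), Ndufs7 (0.26 ± 0.18) and Ndufs8 (0.47 ± 0.23), the last 2 of which hold iron-sulfur clusters on the way to the quinone. A far dimmer probe set of Ndufs8 (mean level 7.80, not 12.55) gave -0.71 ± 0.52.

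The supernumerary subunits of complex I surround the core and are needed for its assembly and stability. Their median was 0.11 over 28 genes, 19 positive, and the genes that differed most went both ways. Ndufa8, a subunit on the intermembrane side, stood at 12.48, 12.72 and 12.60 on induced and 12.08, 11.98 and 11.93 on uninduced arrays. The groups did not overlap, and the difference was 0.60 ± 0.15 (adjusted p of 0.15 in limma). It was 0.40 between the arrays numbered 1 and 0.70 between the others. Ndufc1, a small membrane subunit, stood at 13.44, 13.60 and 13.56 and 13.16, 12.94 and 12.94, a difference of 0.52 ± 0.16 (adjusted p of 0.189 in limma), and its other bright probe set gave 0.40. Ndufa5, of the matrix arm, stood at 12.54, 12.23 and 12.16 and 11.99, 11.25 and 11.28, the largest positive difference of a subunit gene at 0.81 ± 0.25. Its uninduced array 1 lay between the induced and the other uninduced arrays, and without that array the difference was 1.05 (adjusted p of 0.0356 in limma). Ndufa9 (0.46 ± 0.19) and Ndufb10 (0.44 ± 0.18) were also without overlap.

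On the negative side, Ndufa6, a small LYR-motif subunit of the matrix arm, stood at 12.60, 12.81 and 12.73 on induced and 13.00, 13.65 and 13.61 on uninduced arrays. This was the lowest value of complex I, -0.71 ± 0.22, with a confidence interval of -1.24 to -0.17 and an adjusted p of 0.199 in limma. It was -0.91 without uninduced array 1, with an adjusted p of 0.0317 in limma. Ndufv3, a subunit bound beside the flavin module, stood at 12.61, 12.48 and 12.46 and 12.89, 13.06 and 12.93, a difference of -0.45 ± 0.15 without overlap, and it was -0.28 and -0.53 in the arrays numbered 1 and the others. Ndufa2 was lower without overlap by a small amount (-0.19 ± 0.15). The only Ndufb4 probe set with a single symbol had a mean level of 5.04, at background, and its value (-0.35 ± 0.22) was measured at that level. By position, the 14 measured matrix-arm genes had a median of 0.30 and a range from -0.71 to 0.81, and the 19 membrane-arm genes a median of 0.15 and a narrower range from -0.35 to 0.60. Ndufab1, the mitochondrial acyl carrier protein found in both arms, stood at 0.23 ± 0.18.

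Probe sets other than the brightest were fitted with all probe sets together. For 3 more complex I genes such a probe set, itself not below the median level, had the opposite sign, with -0.88 ± 0.24 for Ndufa3 against 0.16, 0.89 ± 0.29 for Ndufs4 against -0.18, and 0.04 ± 0.15 for Ndufb11 against -0.05. In all, 61 of 71 further probe sets at that level had the sign of the one used, and the 10 that did not belonged to 10 members.

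The complex I assembly factors held the largest positive difference of all members. Ndufaf4, which acts early in building the matrix arm, stood at 11.40, 11.31 and 11.27 on induced arrays and 11.18, 9.56 and 9.71 on uninduced arrays. The groups did not overlap, but uninduced array 1 was almost level with the induced arrays and the other uninduced arrays were far below. The difference was 1.18 ± 0.43 (adjusted p of 0.242 in limma), that is 0.22 between the arrays numbered 1 and 1.65 between the others. Without uninduced array 1 it was 1.69 (adjusted p of 0.0133 in limma). A dimmer Ndufaf4 probe set gave 0.56 ± 0.25. Ndufaf2, which acts late in assembly, stood at 10.43, 9.98 and 10.23 and 9.67, 9.68 and 9.62, a difference of 0.56 ± 0.17 with the 3 uninduced arrays close together. Ndufaf1, of the membrane-arm assembly complex, differed by 0.33 ± 0.17 without overlap. The remaining 5 overlapped: Ndufaf5 (0.23), Ndufaf7 (0.09), Ndufaf6 (-0.07), Ndufaf8 (-0.09, with 0.25 ± 0.23 from another probe set) and Ndufaf3 (-0.25).

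**Figure D4:**
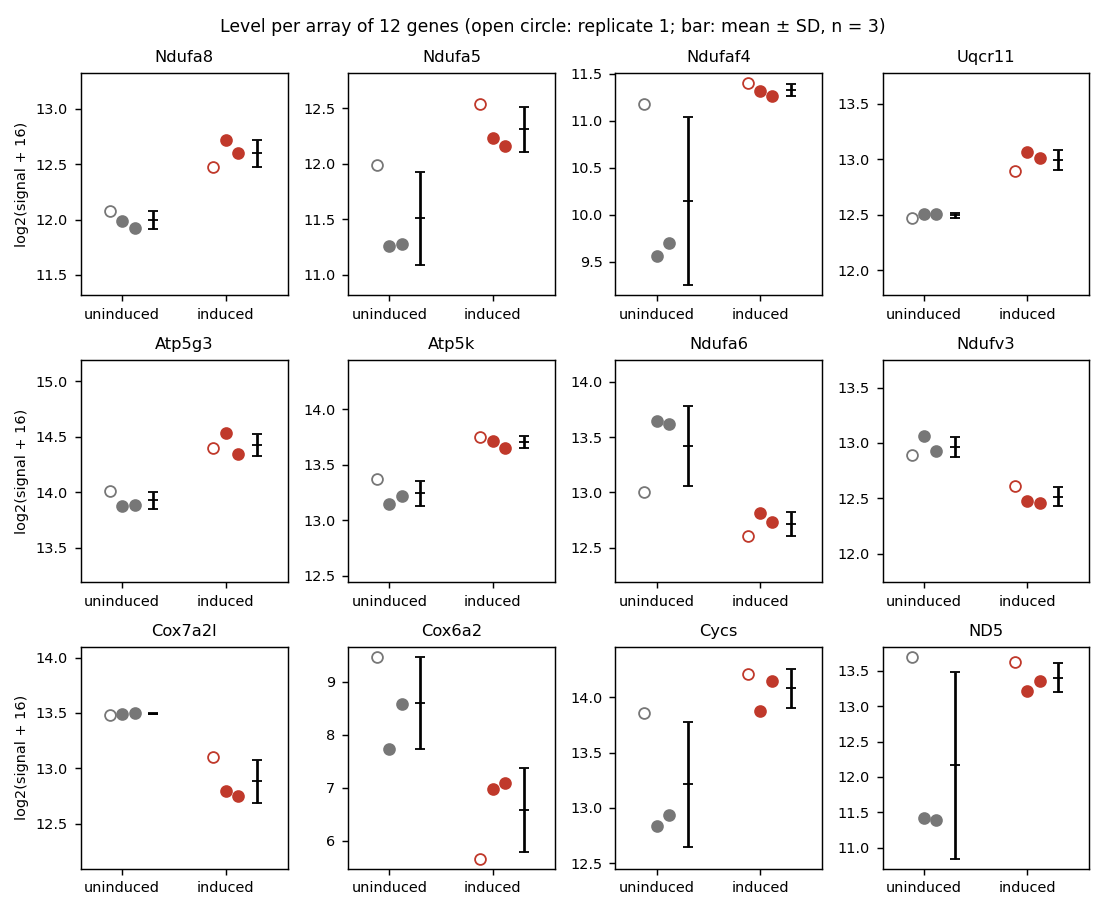
Log2(signal + 16) (y axis, at least 2 log2 units high in each panel) of 12 genes on the 3 uninduced (grey) and 3 induced (red) arrays, with replicate 1 as an open circle and the mean ± SD (n = 3) beside the points. The groups do not overlap for Ndufa8, Uqcr11, Atp5g3 and Cox7a2l, among others. For Ndufaf4 they do not overlap either, but uninduced array 1 (11.18) is near the induced level. For ND5 uninduced array 1 (13.69) lies above the induced arrays.

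Complex II, the succinate dehydrogenase that also serves the citric acid cycle, had the smallest range of differences, from -0.01 to 0.36. Sdha, the flavoprotein, stood at 12.45, 12.73 and 12.56 on induced and 12.40, 12.12 and 12.15 on uninduced arrays. Its groups did not overlap and it differed by 0.36 ± 0.17, but a second bright probe set gave -0.04 ± 0.15. The iron-sulfur subunit gene Sdhb stood at 0.07 ± 0.18 and the membrane anchor genes Sdhc and Sdhd at 0.08 ± 0.15 and -0.01 ± 0.17. The intervals of all 4 stayed within a 2-fold change.

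Complex III passes electrons from ubiquinol to cytochrome c, and the name rule leaves out its cytochrome c1 gene Cyc1, which is given further below. Among the 8 members the small subunit gene Uqcr11 differed most. It stood at 12.89, 13.07 and 13.01 on induced and 12.47, 12.51 and 12.50 on uninduced arrays, a difference of 0.50 ± 0.15 (adjusted p of 0.184 in limma). The 3 uninduced arrays were within a few hundredths of each other, and the difference was 0.42 and 0.53 in the arrays numbered 1 and the others. Uqcr10, another small subunit, differed by 0.38 ± 0.17 without overlap, but its dimmer probe sets gave 0.03 ± 0.18 and 0.15 ± 0.16. Uqcrc1, a core protein, differed by 0.28 ± 0.16, also without overlap. The other core protein gene Uqcrc2 stood at -0.03 ± 0.14, the Rieske iron-sulfur protein gene Uqcrfs1 at -0.15 ± 0.20, the hinge protein gene Uqcrh at -0.16 ± 0.19, Uqcrq at -0.08 ± 0.19 and Uqcrb at 0.27 ± 0.18. Thus members of 1 complex lay on both sides of 0, with intervals of all 8 within a 2-fold change.

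Complex IV, cytochrome c oxidase, has ubiquitous nuclear subunits and isoforms that replace some of them in muscle, lung or testis. The 10 ubiquitous genes had a median of 0.09. Cox4i1, Cox5a, Cox6a1, Cox6c, Cox7a2 and Cox8a lay between -0.10 and 0.12, with overlapping groups. Ndufa4 stood at 13.50, 13.73 and 13.58 on induced and 13.39, 13.16 and 13.07 on uninduced arrays, a difference of 0.40 ± 0.17 without overlap. Cox5b (0.24 ± 0.15) was also without overlap, and Cox6b1, on the intermembrane side, stood at 0.20 ± 0.16. Cox7c has only dim probe sets with a single symbol on these arrays, and it stood at 9.02, 7.35 and 7.84 on induced and 9.28, 6.64 and 7.02 on uninduced arrays. Both arrays numbered 1 were high, so its difference of 0.43 ± 0.77 had the widest interval of all members (-1.43 to 2.28).

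Among the isoform genes Cox6a2, the heart and muscle form of subunit 6a, had the largest difference of any member. It stood at 5.66, 6.97 and 7.08 on induced and 9.46, 7.73 and 8.57 on uninduced arrays, that is a signal of 87.8 ± 46.5 (SD, n = 3) against 417 ± 251 (SD, n = 3). The groups did not overlap, with induced array 1 the lowest and uninduced array 1 the highest. The difference was -2.02 ± 0.55, its interval was -3.35 to -0.69 and its adjusted p was 0.161 in limma. It was -3.80 between the arrays numbered 1 and -1.13 between the others, and -1.58 without uninduced array 1. Induced array 1 was below the background level of 6.12, so the first of these rests on a value that may not measure Cox6a2. A dimmer probe set gave -1.93 ± 0.43, but its mean level of 5.93 was itself below background. The ubiquitous partner Cox6a1 stood at 0.07 ± 0.18.

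The other isoform genes were mostly at background. Cox7a1, the muscle partner of Cox7a2, and Cox7b2, a testis form, were lower without overlap (-0.69 ± 0.17 and -0.91 ± 0.29), but their mean levels of 5.35 and 4.73 were below the 90th percentile of the background genes. The same held for Cox6b2 (-0.04 ± 0.44), Cox8b (0.21 ± 0.23) and Ndufa4l2 (0.42 ± 0.45). Cox4i2, the lung and hypoxia-associated form of subunit 4, stood at 6.70, 6.33 and 6.86 and 6.67, 5.74 and 6.76, a difference of 0.24 ± 0.32 with overlapping groups. Cox8c, a testis form, stood at -0.19 ± 0.18. Leaving the isoforms out changed the median of complex IV from 0.06 to 0.09.

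Cox7a2l, whose protein links complexes III and IV, had the smallest SD between uninduced arrays of the 90 members. It stood at 13.10, 12.80 and 12.75 on induced and 13.49, 13.49 and 13.50 on uninduced arrays, without overlap. The difference was -0.61 ± 0.16 (adjusted p of 0.159 in limma). Its other probe sets gave -0.62 ± 0.16 and -0.58 ± 0.17, so all 3 had the same direction and a like size. With the filter at the median level limma called 8.16% of the genes tested, and Cox7a2l fell, and Ndufa8 and Uqcr11 rose, at an adjusted p of 0.05 (3.55% of these genes called higher and 4.61% lower). With a trended and robust variance limma called 3.02% of all genes, and Cox7a2l fell and Ndufa8 and Atp5g3 rose (1.3% higher and 1.72% lower over all genes).

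Complex V, the ATP synthase, consists of the catalytic F1 head, the ring of c subunits that turns in the membrane, and the stalks that hold them. Of the F1 genes, Atp5a1 (subunit alpha) stood at 13.60, 14.13 and 14.00 on induced and 13.63, 13.29 and 13.40 on uninduced arrays, and only induced array 1 overlapped the uninduced ones. It differed by 0.47 ± 0.20, whereas Atp5b, the catalytic subunit beta, stood at 0.15 ± 0.16, Atp5c1 at 0.03 ± 0.15, Atp5d at -0.03 ± 0.16 and Atp5e at -0.26 ± 0.32. A dim second probe set of Atp5c1 gave -0.57 ± 0.20. The F1 median was 0.03, and 0 of the 5 were without overlap, against 24.1% of all genes.

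The 3 c-ring genes encode the same mature protein with different import sequences, and their differences lay on both sides of 0. Atp5g3 stood at 14.40, 14.53 and 14.34 on induced and 14.01, 13.88 and 13.89 on uninduced arrays, a difference of 0.50 ± 0.15 without overlap (adjusted p of 0.189 in limma). Atp5g1 stood at 12.89, 12.68 and 12.65 and 12.94, 11.89 and 12.06, and uninduced array 1 was the highest of the 6, so that the difference of 0.44 ± 0.30 was -0.05 between the arrays numbered 1 and 0.69 between the others. Atp5g2 stood at 13.55, 13.30 and 13.15 and 13.76, 13.57 and 13.55, lower without overlap by a narrow margin (-0.30 ± 0.17), though a dim probe set gave 0.45 ± 0.30. Whether the 3 genes' changes differ from each other was not tested.

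Of the 9 stalk and membrane subunit genes of complex V, 8 were positive, and the median was 0.28. In 6 of the 9 the induced arrays lay wholly above the uninduced ones, against 10.7% of all genes and 443 of the 1820 in the top 10% by level. Their mean level was 13.46, 13.42 and 13.44 on induced arrays 1 to 3 and 13.22, 13.27 and 13.28 on uninduced arrays 1 to 3. Atp5k, subunit e of the dimer interface, stood at 13.75, 13.71 and 13.65 and 13.37, 13.15 and 13.22, a difference of 0.46 ± 0.15, and its 2 further probe sets gave 0.67 ± 0.19 and 0.56 ± 0.18. Atp5j, the coupling factor F6, stood at 13.82, 13.78 and 13.71 and 13.49, 13.42 and 13.45, a difference of 0.32 ± 0.14 with close replicates. Atp5l (0.28 ± 0.17), Atp5pb (0.28 ± 0.15), Atp5h (0.18 ± 0.15) and Atp5o, the oligomycin-sensitivity subunit (0.09 ± 0.14), were also without overlap. Atp5j2 stood at 0.30 ± 0.22, Atp5mpl at 0.01 ± 0.26 and Atp5md at -0.24 ± 0.24.

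**Figure D5:**
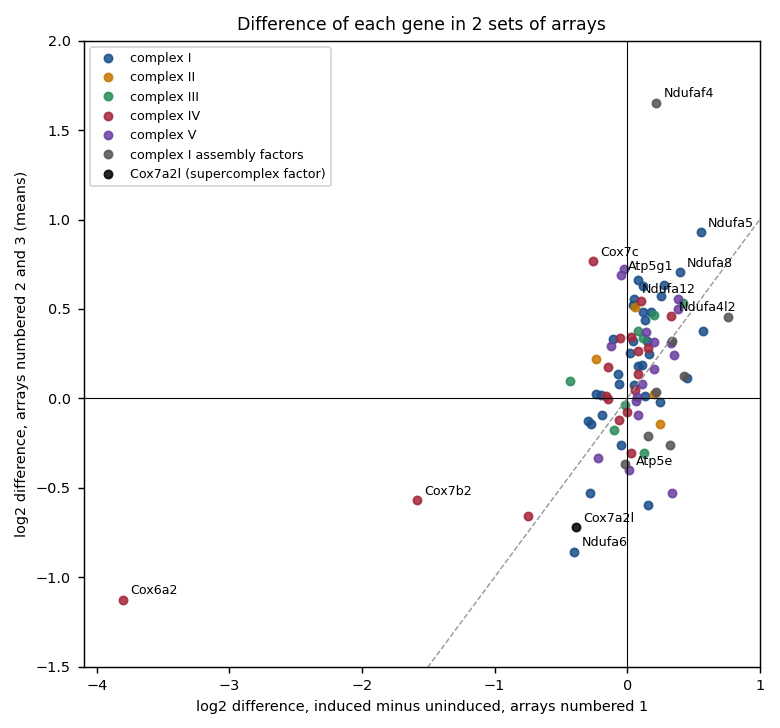
Difference of log2(signal + 16), induced minus uninduced, of each of the 90 genes between the arrays numbered 1 (x axis) and between the means of those numbered 2 and 3 (y axis), coloured by complex, with a dashed line where both are equal. Ndufaf4 (0.22 and 1.65) lies far above the line and Cox6a2 (-3.80 and -1.13) far to its left.

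Other genes of the pathway that the name rule leaves out were described with the same fit, and 0 of them passed over all genes in limma. The electron carrier genes were both higher without overlap: Cycs, cytochrome c, stood at 14.21, 13.88 and 14.15 on induced and 13.86, 12.84 and 12.94 on uninduced arrays (0.87 ± 0.30), and Cyc1, the cytochrome c1 subunit of complex III, at 12.95, 12.87 and 12.74 and 12.64, 12.03 and 12.10 (0.60 ± 0.21). Their adjusted p over all 6 arrays was 0.229 and 0.231 in limma. Without uninduced array 1 both rose, by 1.19 and 0.79 (adjusted p of 0.0279 and 0.041 in limma). That fit called 3.22% of all genes higher. Without both arrays numbered 1 the adjusted p was 0.0453 for Cycs and 0.0546 for Cyc1 in limma, so Cyc1 was then not called. The mitochondrial genome was represented by ND5, a complex I subunit, which stood at 13.62, 13.22 and 13.35 on induced and 13.69, 11.42 and 11.39 on uninduced arrays. Here uninduced array 1 was the highest of the 6 and uninduced arrays 2 and 3 were far below. The difference was 1.23 ± 0.62 with an adjusted p of 0.368, and 1.99 without uninduced array 1, with an adjusted p of 0.0133, both in limma.

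Of 11 genes of ubiquinone synthesis, 8 were positive, the median was 0.08 and 0 passed, with unadjusted p under 0.05 for 2 higher (7.14% of all genes) and 2 lower (10.3%). Coq10b (0.76 ± 0.19) and the hydroxylase gene Coq7 (0.63 ± 0.22) were higher without overlap, and Coq8a, an atypical kinase (-1.55 ± 0.27), and the lipid-binding Coq9 (-0.65 ± 0.18) were lower without overlap. Of 37 other assembly factors, 25 were positive, the median was 0.14 and 0 passed, with unadjusted p under 0.05 for 6 higher and 2 lower, against the same shares of all genes. Coa7 (1.04 ± 0.24) and Coa3 (0.36 ± 0.15) of complex IV, and Acad9 (0.66 ± 0.19), Foxred1 (0.60 ± 0.22) and Ecsit (0.39 ± 0.15) of complex I, and Uqcc2 (0.38 ± 0.15) of complex III were higher without overlap, whereas Surf1 of complex IV (-0.59 ± 0.20) and Ttc19 of complex III (-0.56 ± 0.21) were lower without overlap. Of 17 regulators of mitochondrial gene expression 10 were positive, with a median of 0.08 and 0 past the threshold. Nrf1 stood at 8.78, 8.99 and 8.95 on induced and 8.54, 8.21 and 8.32 on uninduced arrays, a difference of 0.55 ± 0.17 with an adjusted p of 0.19 in limma. Tfb2m (0.40 ± 0.17) and Tfam (0.30 ± 0.16), which act at mitochondrial promoters, were higher without overlap, the helicase gene Twnk was lower without overlap (-0.37 ± 0.17), and Gabpa stood at -0.02 ± 0.17. Atpif1, the inhibitor of ATP hydrolysis by complex V, was lower without overlap (-0.34 ± 0.15), as was Dmac2l (-0.45 ± 0.15), while Dmac2, a complex I assembly factor, stood at -0.38 ± 0.24.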

How the data were processed

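RNA of 6 Ba/F3 cultures was measured on 6 one-colour Affymetrix arrays, whose titles name the group and replicate. The authors deposited linear signal intensities made with Affymetrix Expression Console 1.4.1 per the submitters' processing notes, with the summary algorithm not given in the sources used here. On every array the mean after trimming 2% at each end was 500.003, so arrays had been scaled to it. Such scaling would hide a change common to most genes. No detection calls were used. Precision is limited by the number of arrays.

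These intensities were used as log2(signal + 16), not normalized again. Without the 64 control probe sets, 34945 had exactly 1 symbol in the platform table, 932 several and 9160 none. The brightest probe set stood for each of 18193 genes. The 90 member symbols are those of the platform table. Near-identical family members and pseudogenes can share probes. Groups were compared with limma 3.58.1 in R 4.3.3 (lmFit and eBayes, two-sided, Benjamini-Hochberg over all genes, threshold 0.05). The fit was tried on simulated arrays with independent noise and planted changes larger than those of most members. That trial does not cover smaller changes or deviations shared by same-numbered arrays. The p-values measure the spread between these cultures, which may be technical. Gene lists are described by counts and medians, without a test. The members and lists were chosen with earlier results of these data known. Named genes were up to 5 of smallest p in each complex and among assembly factors, the 5 of largest change in each direction, all of complex II, core, F1, c-ring and isoform genes with their partners, members with discordant probe sets, and up to 4 of smallest p per other list. Other members and genes (the rest of complexes III and V, Ndufab1, Ndufa2, Coa3, Ecsit, Ttc19, Uqcc2, Gabpa) were named after their values were seen, to complete a group. Motifs were counted in RefSeq promoters, and the protein comparison planned was not made. Alternatives were the replicate number as a block, centring on the median, quantile normalization, pseudocounts of 1 and 64, a filter at the median, the mean of probe sets, a fit of all probe sets, a variance estimate with trend and robustness, a threshold of 0.01, other member sets, and leaving out arrays.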

Additional observations from a re-analysis of the deposited data

How the results depend on the processing

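The members' side of the threshold depended on the setting. In limma 0 were called higher and 0 lower with the design reported, with the replicate number as a block (smallest adjusted p 0.211), and under centring, quantile normalization, both pseudocounts, the mean of probe sets, all probe sets and a threshold of 0.01. With the filter at the median 2 were called higher and 1 lower, and the same counts were obtained with a trended and robust variance. Leaving out arrays gave 0 to 2 higher and 0 to 2 lower. The cause of these changes was not tested. The block left the medians as they were and changed no member's call. The numbers were not taken as pairs, since correlations of same-numbered arrays' deviations were 0.17, 0.08 and 0.08, although each array correlated best with its own number. Median centring raised the medians to 0.22 for all subunits, 0.25 for complex I, 0.18 for complex III and 0.24 for complex V, and it changed the sign of 9 members, all within 0.07 of 0, so that 69 were positive. It moved the median of all genes from -0.06 to 0.01. Complex V was at 0.15 with quantile normalization and 0.14 with the mean of probe sets. Leaving out arrays gave medians of 0.10 to 0.18 for all subunits, 0.15 to 0.22 for complex I, 0.05 to 0.14 for complex II, 0.083 (without uninduced array 2) to 0.22 for complex III, -0.02 (without uninduced array 2) to 0.13 for complex IV, 0.15 to 0.24 for complex V (0.21 without uninduced array 1) and 0.081 (without both arrays numbered 1) to 0.24 for assembly factors. Of these, only complex IV changed sign. Calls over all genes went from 34 to 0 with the block or a pseudocount of 1, 255 with a pseudocount of 64, 742 with the filter and 550 with the trended variance.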
